A study of Mus musculus with 8 samples.

Results

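The genes described here are 5 zinc finger homeobox genes of the mouse, Zfhx2, Zfhx3, Zfhx4, Zeb1 and Zeb2, among the 20701 gene symbols for which transcripts were counted. They were taken by symbol. Where a gene had several transcripts, that with the most counts on average was used, which gave 1 transcript each for Zfhx2, Zfhx3, Zfhx4 and Zeb1 and the longer of 2 for Zeb2. The group was selected on the count values of Zfhx4, which were known to be lower in Isl1_hypo than in CTRL in these same libraries, so the values of Zfhx4 in that contrast are given as a description, and nothing is read from its p-value. The other 4 genes joined it by family, and p-values printed for them come from the fit over all 13769 genes tested. Polyadenylated RNA was sequenced from the outflow tract and right ventricle (OFT/RV), dissected from single C57BL/6 embryos at E10.5. CTRL embryos are labelled wild type (n = 4), and Isl1_hypo embryos are labelled as hypomorphs of Isl1 (n = 4), which the study describes as homozygous for its f;neo allele. The labels give no treatment for either group. Isl1 encodes a LIM-homeodomain factor of second heart field progenitors, the cells that build the outflow tract and right ventricle.

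ZFHX proteins are very large nuclear factors that carry many zinc fingers and several homeodomains in one chain. Zfhx3, also called Atbf1, is known for roles in neuronal differentiation and circadian rhythm and for human variants near it that associate with atrial fibrillation, Zfhx4 for roles in craniofacial and muscle development, and Zfhx2 for pain perception. Zeb1 and Zeb2 (Sip1) carry a cluster of zinc fingers at each end and a single homeodomain-like stretch between them. They bind E-boxes, recruit corepressors such as CtBP and repress epithelial genes, which makes them central factors of epithelial-mesenchymal transition (EMT), and Zeb2 acts in neural crest. All belong to the zinc finger class of homeobox genes, together with the Tshz, Zhx, Adnp and Homez genes.

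The targeted gene was checked first. In CPM, the counts of a gene per 1000000 counts of its TMM-scaled library size, the 4 CTRL embryos ran from 29.6 to 61.5 for Isl1 and the 4 Isl1_hypo embryos from 6.86 to 12.7, so the groups did not overlap, and its log2 fold change was -2.29 (SE 0.256, adjusted p 0.0077, edgeR quasi-likelihood test). With the level of globin genes as a covariate Isl1 was at -2.30 (adjusted p 0.519, edgeR). With the replicate number as a block it was at -2.29 (adjusted p 0.0722, edgeR). Neither of these fits gave any gene an adjusted p under 0.05. The libraries held between 18422245 and 46678973 counts. Isl1_hypo replicate 3 stood apart, with 14305 genes detected against 14935 to 15396 in the other 7 libraries and a first principal component of 72 against -17.7 to 3.97. The share of counts in globin genes was 0.212% to 1.19% in CTRL and 1.18% to 2.44% in Isl1_hypo. Y-linked genes were read at 4097 to 8766 counts in 1 CTRL embryo (replicate 3) and 3 Isl1_hypo embryos (replicates 1, 3 and 4), and at 1 to 9 counts in the rest, so blood content and sex both move with the groups. Nothing in the labels says whether embryos were littermates, and p-values cover the spread between these embryos. Because tissue was sequenced in bulk, fewer cells of a type and less RNA per cell cannot be told apart.

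Zfhx4 was the lowest of the 5 genes and the one that differed most between the groups. It is a protein-coding gene on the plus strand of chromosome 3 (mm9, position 5218554 through 5415855), annotated with up to 13 exons, and its counted transcript is 13861 bases long. CTRL replicates 1 to 4 held 333, 505, 323 and 536 reads of it, or 10.7, 12.4, 8.02 and 11.5 CPM. The Isl1_hypo replicates held 89, 67, 113 and 105 reads, or 4.83, 2.51, 3.57 and 3.63 CPM. Every Isl1_hypo embryo lay below every CTRL embryo, and the nearest pair was at 4.83 and 8.02 CPM. The mean was 10.6 ± 1.89 CPM in CTRL and 3.64 ± 0.949 CPM in Isl1_hypo (SD, n = 4), so that 34.2% of the control level was left. The fit gave a log2 fold change of -1.55 (SE 0.248). Among the 10744 genes with a mean of at least 5 CPM this value ranked 8 from the lowest.

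Zfhx4 is also given by the level of the Y-linked genes. Among the embryos with few Y-linked reads, the 3 CTRL values were 10.7, 12.4 and 11.5 CPM and the only Isl1_hypo value was 2.51 CPM. Among those with many, the only CTRL value was 8.02 CPM, the lowest of its group, and the Isl1_hypo values were 4.83, 3.57 and 3.63 CPM. A fit with the Y-linked level as covariate gave a log2 fold change of -1.57, and one with the globin level gave -1.53. Leaving out each library in turn gave -1.71 to -1.42. The part of sex and of blood content in the difference was not tested.

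**Figure D1:**
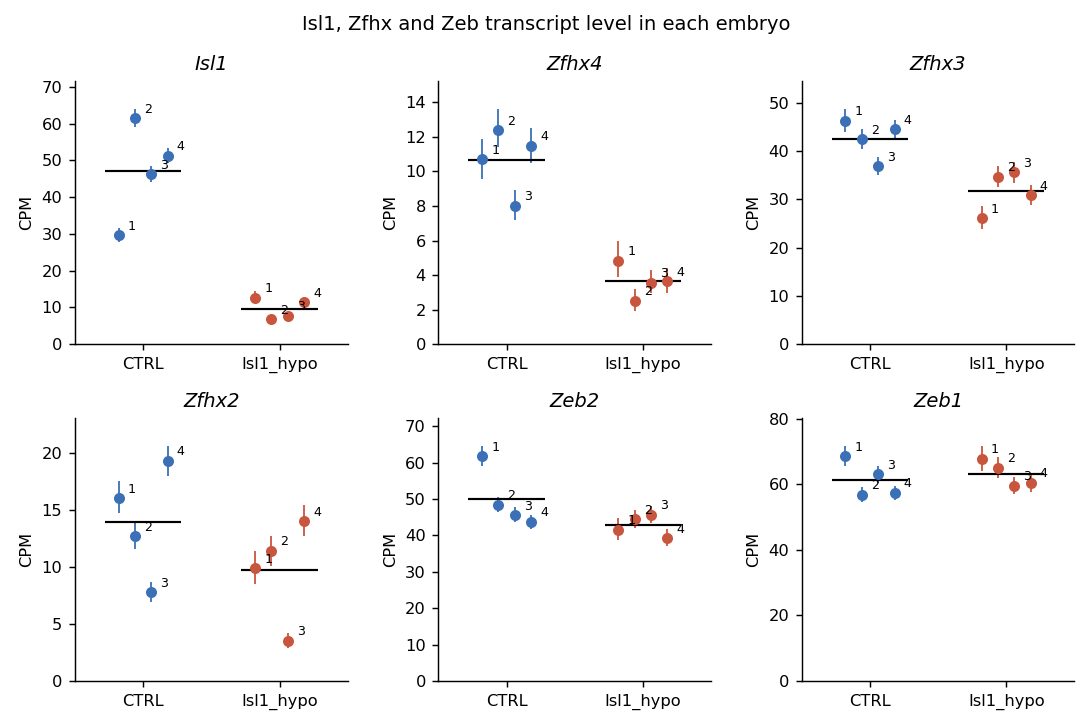
Level of Isl1 and the 5 zinc finger homeobox genes in each embryo, in CPM (vertical axis, starting at 0). Points are embryos with their replicate number, vertical lines are exact 95% Poisson intervals of the counts, and horizontal bars are group means. Zfhx4 was at 8.02 to 12.4 CPM in CTRL and at 2.51 to 4.83 in Isl1_hypo, Zfhx3 was separated by a narrow gap, and Zfhx2, Zeb2 and Zeb1 overlapped.

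Zfhx3 was the most abundant of the 3 Zfhx genes and showed a smaller difference in the same direction. It lies on the plus strand of chromosome 8 (mm9, position 111238544 through 111485521), with 10 annotated exons and a counted transcript of 16427 bases. CTRL replicates 1 to 4 were at 46.3, 42.5, 36.9 and 44.5 CPM, and Isl1_hypo replicates 1 to 4 were at 26.1, 34.7, 35.6 and 30.9 CPM. The groups did not overlap, but CTRL replicate 3 (36.9 CPM) and Isl1_hypo replicate 3 (35.6 CPM) were close, and their counting intervals, from 35.1 and up to 37.7 CPM, crossed. The mean was 42.5 ± 4.05 CPM in CTRL and 31.8 ± 4.29 CPM in Isl1_hypo (SD, n = 4), or 74.8% of the control level. Its log2 fold change was -0.42 (SE 0.137, 95% interval -0.72 to -0.12) and did not pass the threshold after adjustment over all genes (adjusted p 0.284, edgeR). The lowest CTRL value was again that of the only CTRL embryo with many Y-linked reads. A fit with the Y-linked level as covariate gave -0.30, and the part of sex in the difference was not tested further.

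Zfhx2 varied more between embryos of a group than between the groups. It lies on the minus strand of chromosome 14 (mm9, position 55680498 through 55710885), with 10 annotated exons and a counted transcript of 8712 bases. CTRL replicates 1 to 4 held 16, 12.7, 7.77 and 19.3 CPM, and Isl1_hypo replicates 1 to 4 held 9.88, 11.4, 3.51 and 14 CPM. Replicate 3 was the lowest embryo in both groups, and 3 of the 4 Isl1_hypo values lay within the CTRL range. The spread was 35.3% of the mean in CTRL and 46% in Isl1_hypo, the widest of the 5 genes in each group. The mean was 13.9 ± 4.92 CPM in CTRL and 9.7 ± 4.47 CPM in Isl1_hypo (SD, n = 4). The log2 fold change was -0.52 (SE 0.379, 95% interval -1.36 to 0.31, adjusted p 0.605, edgeR), an interval that holds no change as well as a fall larger than that of Zfhx3. The value was -0.24 without Isl1_hypo replicate 3, the library that stood apart, and -0.33 without CTRL replicate 4. Without Isl1_hypo replicate 4 it was -0.76, and without CTRL replicate 3 it was -0.73. It was -0.19 by limma-voom with sample quality weights, which lower the influence of libraries that vary more, and -0.07 in an edgeR fit with the Y-linked level as covariate. RefSeq (GRCm38.p6) places an antisense gene, Zfhx2os, within the span of Zfhx2, and because strand was ignored in counting, reads of such a transcript over its exons would be added to Zfhx2.

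To show the sequence in front of these genes, the 250 bases upstream of the annotated start are given for Zfhx3, for Zfhx2 and, of the 4 starts of Zeb2, for the one farthest upstream, the only one of these windows with a match to any of the 3 motifs searched. They are RefSeq sequences on GRCm38.p6, a later build than that of the counts, at chr8:108714394-108714643 on the plus strand, chr14:55092049-55092298 on the minus strand and chr2:45117443-45117692 on the minus strand, and each is written 5′ to 3′ along its gene. Capitals mark a match on either strand to TAATTG or TAATGG, cores that LIM-homeodomain factors can bind, or to CACCTG, the E-box of ZEB factors. The shorter homeodomain core TAAT was also searched and is not marked on its own.
Zfhx3: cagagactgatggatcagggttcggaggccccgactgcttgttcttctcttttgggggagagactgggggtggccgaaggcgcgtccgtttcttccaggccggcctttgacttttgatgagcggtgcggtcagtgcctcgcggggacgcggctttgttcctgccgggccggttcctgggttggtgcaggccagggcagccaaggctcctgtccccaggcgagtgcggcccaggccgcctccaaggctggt
Zfhx2: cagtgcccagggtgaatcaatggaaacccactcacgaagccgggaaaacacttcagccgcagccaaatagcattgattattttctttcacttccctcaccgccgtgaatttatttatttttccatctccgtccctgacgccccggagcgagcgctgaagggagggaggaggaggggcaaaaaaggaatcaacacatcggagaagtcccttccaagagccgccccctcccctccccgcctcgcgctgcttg
Zeb2: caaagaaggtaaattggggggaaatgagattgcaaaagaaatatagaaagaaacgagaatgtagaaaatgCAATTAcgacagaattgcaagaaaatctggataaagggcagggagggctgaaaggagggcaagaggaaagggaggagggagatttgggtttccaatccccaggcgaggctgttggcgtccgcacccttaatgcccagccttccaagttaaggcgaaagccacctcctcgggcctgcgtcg
Of 32851 such windows over all genes, 7.17% held TAATTG, 6.57% held TAATGG, 17.2% held CACCTG and 54.9% held TAAT. The core TAAT matched 0 times in the Zfhx3 window, 1 time in the Zfhx2 window and 2 times in the Zeb2 window shown. The Zfhx3 window was 66% G and C, against a median of 52.4% over all windows, the Zfhx2 window 55.6% and the Zeb2 window 49.6%. RefSeq windows were read for 3 of the 5 genes only.

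Zeb1 was the gene of the 5 with the least difference between the groups. It lies on the plus strand (mm9, position 5591858 through 5775465 of chromosome 18), with up to 8 annotated exons and a counted transcript of 5796 bases. The CTRL embryos held 68.6, 56.8, 63 and 57.4 CPM, and the Isl1_hypo embryos held 67.8, 65.1, 59.6 and 60.5 CPM. All Isl1_hypo values lay within the CTRL range. The mean was 61.4 ± 5.52 CPM in CTRL and 63.2 ± 3.89 CPM in Isl1_hypo (SD, n = 4). The log2 fold change was 0.04 (SE 0.109, adjusted p 0.911, edgeR), and its 95% interval from -0.20 to 0.28 leaves room for a change between 0.873-fold and 1.21-fold.

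Zeb2 was lower on average in Isl1_hypo, with 1 high CTRL embryo. It lies on the minus strand of chromosome 2 (mm9, position 44839154 through 44972915), with up to 11 annotated exons and a counted transcript of 9223 bases. The CTRL embryos were at 61.8, 48.4, 45.6 and 43.8 CPM, and the Isl1_hypo embryos at 41.6, 44.5, 45.7 and 39.3 CPM. CTRL replicate 1 stood above the other 7 embryos, which lay between 39.3 and 48.4 CPM, and the groups overlapped. The log2 fold change was -0.22 (SE 0.135, 95% interval -0.52 to 0.07, adjusted p 0.539, edgeR). It was -0.11 without CTRL replicate 1 and -0.03 in a fit with the globin level as covariate. The second Zeb2 transcript, 8887 bases long, shared nearly all of its reads with the first, which held 7 to 27 reads more per library, between 0.362% and 1.57% of its count, so the transcripts could not be told apart. Zeb2 also shares 458 exon bases with an antisense gene on the opposite strand (Gm13476), whose reads would be added to it.

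Of the 5 genes, 1 (Zfhx4) had an adjusted p under 0.05, against 0.269% of all genes tested in either direction (37 genes) and 0.123% in the lower direction (17 genes). As Zfhx4 was known to be among these genes when the group was formed, nothing is read from that count. It was 0 with the Y-linked or the globin level as a covariate, and without CTRL replicate 1, 2, 3 or 4 or Isl1_hypo replicate 2 or 4. Of the other 4 genes, 1 (Zfhx3) had an unadjusted p under 0.05, against 11.9% of all genes, and for the same gene the groups did not overlap, against 8.5% of all genes. The fitted value was lower in Isl1_hypo for 3 of the 4 genes other than Zfhx4, where 49.1% of all genes were lower and the median log2 fold change of all genes was 0.00567.

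**Figure D2:**
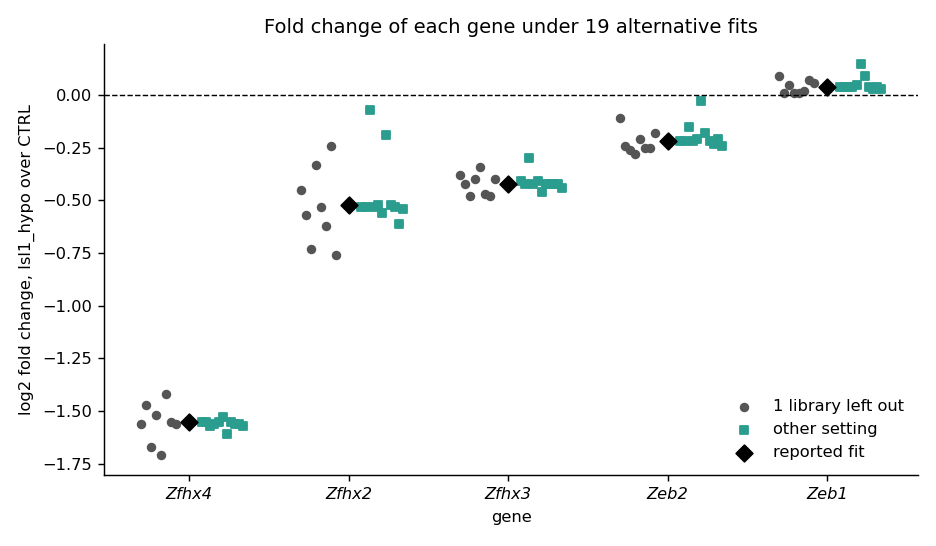
Log2 fold change of Isl1_hypo over CTRL (vertical axis) of each gene in the reported fit (diamonds), with 1 library left out (circles) and under 11 other settings (squares). Zfhx4 stayed between -1.71 and -1.42, Zfhx3 between -0.48 and -0.30, and Zfhx2 ranged from -0.76 to -0.07. The dashed line marks no change.

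Levels were next compared between the genes per kilobase of transcript, as RPKM, the CPM per kilobase, on TMM-scaled library sizes. The order was Zeb1, Zeb2, Zfhx3, Zfhx2 and Zfhx4 from highest to lowest in all 8 libraries. Mean RPKM in CTRL was 10.6 ± 0.953 for Zeb1, 5.41 ± 0.884 for Zeb2, 2.59 ± 0.246 for Zfhx3, 1.6 ± 0.564 for Zfhx2 and 0.768 ± 0.136 for Zfhx4 (SD, n = 4). In Isl1_hypo the same genes were at 10.9 ± 0.672, 4.64 ± 0.313, 1.94 ± 0.261, 1.11 ± 0.513 and 0.262 ± 0.0685 RPKM. The ranges over embryos of neighbouring genes in this order met in 2 cases. In CTRL, Zfhx2 (0.892 to 2.21 RPKM) and Zfhx4 (0.579 to 0.896 RPKM) touched at their edges, and in Isl1_hypo Zfhx3 (1.59 to 2.16 RPKM) and Zfhx2 (0.403 to 1.61 RPKM) did. Among all genes tested, Zeb1 lay at percentile 56.9 of mean RPKM and Zfhx4 at percentile 10.6.

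**Figure D3:**
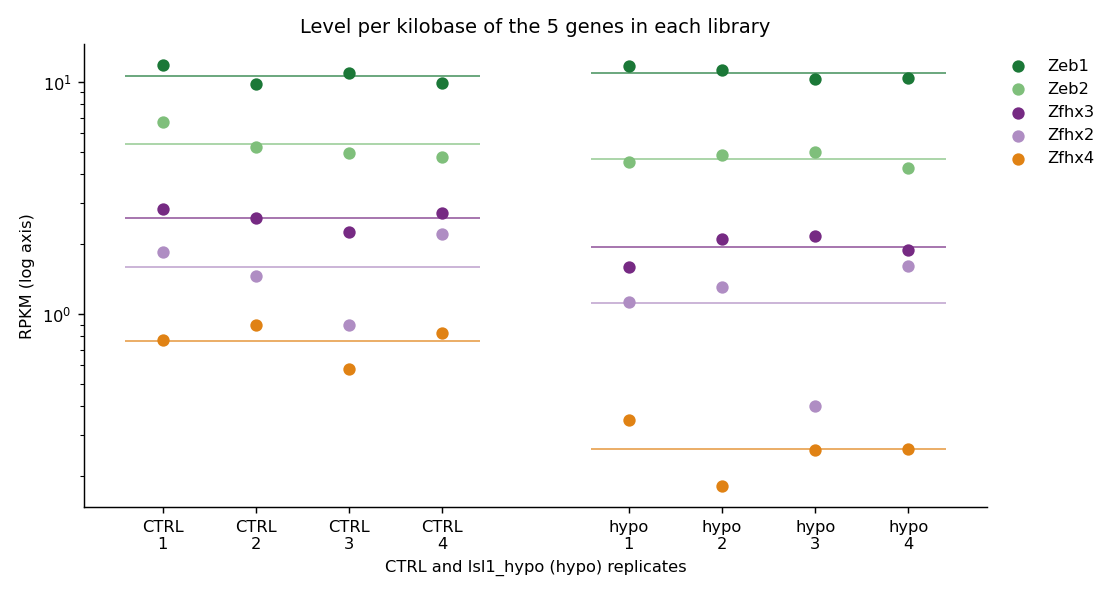
Level per kilobase (RPKM, vertical log axis) of the 5 genes in each of the 4 CTRL and 4 Isl1_hypo libraries, with horizontal lines at the group means. The order of the genes was the same in every library, and Zfhx4 was at 0.579 to 0.896 RPKM in CTRL and 0.181 to 0.349 in Isl1_hypo.

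The composition of the family within each library followed from these values. Zfhx4 made up 14.2%, 18.2%, 15.6% and 14.4% of the summed RPKM of the 3 Zfhx genes in CTRL replicates 1 to 4 and 11.3%, 5.03%, 9.12% and 6.98% in Isl1_hypo. The mean share was 15.6% ± 1.84 in CTRL and 8.11% ± 2.71 in Isl1_hypo (SD, n = 4), which restates the values of Zfhx4 on which the group was selected. Zfhx3 made up 53% ± 5.51 in CTRL and 59.3% ± 12.1 in Isl1_hypo, and the highest share, 76.6%, was that of Isl1_hypo replicate 3, where Zfhx2 was lowest. The summed level of the Zfhx genes was 4.96 ± 0.89 RPKM in CTRL and 3.31 ± 0.434 RPKM in Isl1_hypo, with CTRL replicate 3 (3.72) just below the highest Isl1_hypo embryo (3.75). For the Zeb pair the sum was 16 ± 1.76 and 15.6 ± 0.723 RPKM, and the ratio of Zeb2 to Zeb1 was 0.509 ± 0.0502 in CTRL and 0.427 ± 0.0418 in Isl1_hypo.

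The other zinc finger class homeobox genes in the table are Adnp, Adnp2, Tshz1, Tshz2, Tshz3, Zhx1, Zhx2, Zhx3 and Homez, and all 9 were tested. The fitted value was lower in Isl1_hypo for 9 of 9, with log2 fold changes from -0.77 to -0.02 and a median of -0.17. None had an adjusted p under 0.05 with edgeR, DESeq2 or weighted limma-voom, which called 0.973% of all genes. None had an unadjusted p under 0.05 with edgeR, and 1 did with each of the other tools, beside 11.9% of all genes with edgeR, 13.2% with DESeq2 and 13.7% with weighted limma-voom. The direction was not stable, and the value was lower for 6 of the 9 without Isl1_hypo replicate 3 and for 6 with weighted limma-voom. The lowest value was that of Tshz2, a teashirt factor, at 9.57, 11.2, 10.1 and 8.44 CPM in CTRL and 5.97, 9.26, 1.71 and 6.16 CPM in Isl1_hypo. Isl1_hypo replicate 2 lay within the CTRL range and replicate 3 far below it. The log2 fold change of Tshz2 was -0.77 (SE 0.383, adjusted p 0.464, edgeR). With 1 library left out it ran from -1.10 without Isl1_hypo replicate 2 to -0.46 without Isl1_hypo replicate 3. Homez (log2 fold change -0.19, adjusted p 0.607) and Tshz1 (-0.17, adjusted p 0.71) had the next smallest p-values of the list. On leaving out 1 library Homez ran from -0.25 to -0.13 and Tshz1 from -0.26 to -0.09. The 95% intervals of all 9 genes included 0, with lower bounds from -1.61 for Tshz2 to -0.27 for Zhx1.

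**Figure D4:**
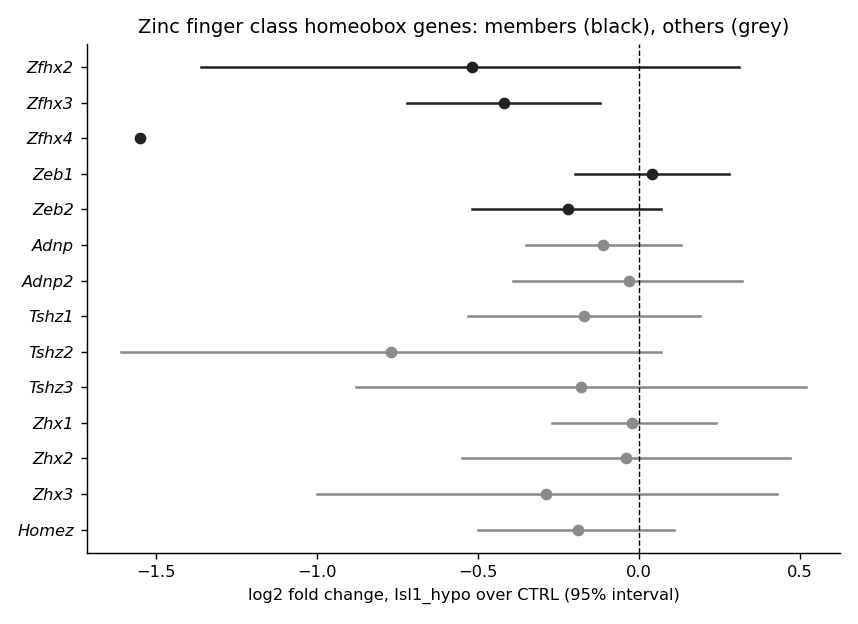
Log2 fold change of Isl1_hypo over CTRL (horizontal axis) with its 95% interval from the edgeR fit for the 5 genes described (black) and 9 other zinc finger class homeobox genes (grey). Zfhx4, on which the group was selected, is shown without an interval. The value of Zfhx4 was -1.55, and the next lowest were those of Tshz2 at -0.77 and Zfhx2 at -0.52. The vertical line marks no change.

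The proteins that act with ZEB factors were examined as a list of 19 corepressors, chromatin proteins and SMADs, all of which were tested. None had an adjusted p under 0.05 with edgeR or weighted limma-voom, and 2 did with DESeq2 (Chd4 and Smarca4), which called 2.32% of all genes. With edgeR 3 of the 19 had an unadjusted p under 0.05, beside 11.9% of all genes, and the median log2 fold change was -0.06. Chd4, the helicase of the NuRD complex, was at 283, 296, 263 and 282 CPM in CTRL and 211, 226, 187 and 239 CPM in Isl1_hypo. Smarca4, which encodes the Brg1 subunit of the SWI/SNF remodelling complex, was at 303, 311, 284 and 283 CPM in CTRL and 239, 237, 189 and 240 CPM in Isl1_hypo. The groups did not overlap for either gene, as for 8.5% of all genes, and Isl1_hypo replicate 3 was the lowest in both. The log2 fold change was -0.38 for Chd4 (adjusted p 0.188, edgeR) and -0.38 for Smarca4 (adjusted p 0.195). Rbbp7, a histone-binding subunit, had the third smallest p-value and a log2 fold change of 0.30 (adjusted p 0.37).

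Factors that act beside ZEB proteins in EMT, with mesenchymal genes, formed a list of 11 genes, all tested. None had an adjusted p under 0.05 with edgeR, DESeq2 or weighted limma-voom, and 5 had an unadjusted p under 0.05 with edgeR, 4 of them lower, beside 11.9% of all genes. The median log2 fold change was -0.30, and the value was lower in Isl1_hypo for 8 of the 11. Snai1, the Snail repressor, was at 48, 36.7, 34.9 and 34.8 CPM in CTRL and 29.3, 26.2, 10.3 and 22.2 CPM in Isl1_hypo, without overlap. Its log2 fold change was -0.81 (SE 0.266, adjusted p 0.283, edgeR). On leaving out 1 library it ran from -0.98 without Isl1_hypo replicate 1 to -0.58 without Isl1_hypo replicate 3. Twist2 (-0.88, adjusted p 0.303) and Twist1 (-0.57, adjusted p 0.343), a pair of basic helix-loop-helix factors, had the next smallest p-values. For both, the highest Isl1_hypo embryo lay within the CTRL range. When the globin level was a covariate, none of the 11 had an unadjusted p under 0.05, beside 3.62% of all genes in that fit, and Snai1 was at -0.40. The part of blood content in these differences was not tested further.

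The epithelial genes that ZEB factors are known to repress showed 1 embryo apart from the rest. Of the 19 genes of the list, 16 were highest in Isl1_hypo replicate 1, and the summed level there was 200 CPM against 44.9 to 78.7 CPM in the other Isl1_hypo embryos and 60.7 to 83.1 CPM in CTRL. Of the 12 genes with enough counts to be tested, 9 had a higher and 3 a lower value in Isl1_hypo, with a median log2 fold change of 0.90. Without Isl1_hypo replicate 1 the direction turned, with 4 higher, 8 lower and a median of -0.32. None had an adjusted p under 0.05 with edgeR, DESeq2 or weighted limma-voom, and 1 had an unadjusted p under 0.05 with edgeR, beside 11.9% of all genes. That was Epcam, an epithelial adhesion molecule, at 0.128, 0.615, 0.546 and 0.983 CPM in CTRL and 9.83, 0.675, 0.316 and 1.87 CPM in Isl1_hypo. Its log2 fold change was 2.44 (SE 0.971, adjusted p 0.347, edgeR), and 0.73 without Isl1_hypo replicate 1. Tjp3, a tight junction gene (0.69, adjusted p 0.491), and Grhl2, an epithelial transcription factor (2.39, adjusted p 0.522), had the next smallest p-values, both with the highest level in Isl1_hypo replicate 1. Without that embryo Tjp3 was at 0.58 and Grhl2 at 0.66. In that embryo Zeb1 and Zeb2 were at 67.8 and 41.6 CPM, within the range of the other 7 for both.

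Zfhx3 is known to act with the STAT inhibitor Pias3 and with Runx3, and Cdkn1a is among the genes named with it in other tissues. Of a list of 7 such partners and targets 5 were tested, and none had an adjusted p under 0.05 with edgeR, DESeq2 or weighted limma-voom. No unadjusted p was under 0.05 with edgeR, and 1 was with each of the other tools, which gave 13.2% (DESeq2) and 13.7% (weighted limma-voom) over all genes. Cdkn1a, the cell cycle inhibitor p21, had a log2 fold change of 0.36 (adjusted p 0.434, edgeR), and Pias3 one of -0.25 (adjusted p 0.582). With 1 library left out, Cdkn1a ran from 0.24 to 0.51 and Pias3 from -0.35 to -0.10.

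**Figure D5:**
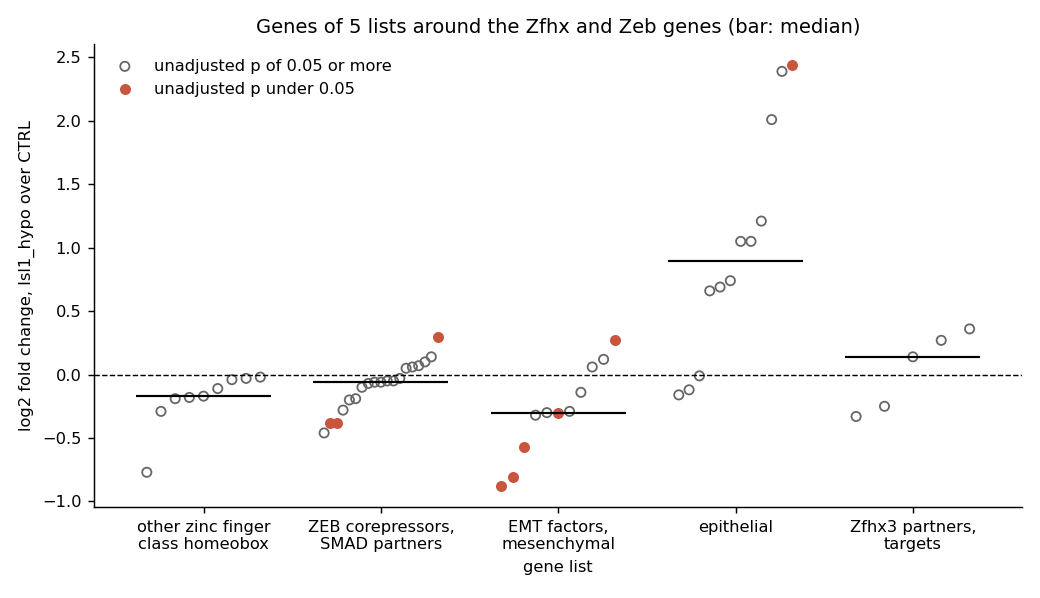
Log2 fold change of Isl1_hypo over CTRL (vertical axis) for each tested gene of 5 lists around the Zfhx and Zeb genes, ordered by value within a list, with a bar at the median. Filled points had an unadjusted p under 0.05 and open points did not. No gene of the 5 lists had an adjusted p under 0.05 with edgeR (Chd4 and Smarca4 did with DESeq2), and the epithelial list, with a median of 0.90, rested on Isl1_hypo replicate 1.

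The nearest tested genes on each side of the 5 genes were then described, some of them far away. For Zfhx4 the reference order gave no tested gene before it. After it, Pkia, an inhibitor of protein kinase A, lay 1950.7 kb away and had a log2 fold change of 0.22 (adjusted p 0.502, edgeR), and Stmn2, a microtubule regulator of neurons, lay 3093.7 kb away with a value of -0.61 (adjusted p 0.328). Within 67.0 kb of Zfhx2 lie Ngdn (0.05), Thtpa (-0.04), Ap1g2 (0.05) and the beta-myosin gene Myh7 (-0.49, adjusted p 0.165). Between 586.4 and 1156.0 kb from Zfhx3 lie Wwp2 (-0.13), Psmd7 (0.15), Dhx38 (-0.24) and Txnl4b (0.34). The neighbours of Zeb1, at 249.0 to 472.6 kb, were Svil (-0.62, adjusted p 0.173), Zfp438 (0.52), Arhgap12 (0.14) and Kif5b (-0.08), and those of Zeb2 were Gtdc1 (-0.01) at 56.0 kb and, at 3696.7 to 5757.2 kb, Ppp6c (0.09), Acvr2a (0.08) and Orc4 (0.23). No neighbour had an adjusted p under 0.05, and 4 of them (Myh7, Stmn2, Svil and Zfp438) had an unadjusted p under 0.05, beside 11.9% of all genes.

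The genes whose log2 CPM followed each gene most closely over the 8 libraries were listed among 10743 genes, as a description. For Zfhx4 they were the Wnt antagonist Dkk1 (Pearson r 0.97), Klc3 (0.967) and Zfyve27 (0.966), and Isl1 was the 5th, with r of 0.956. These values hold the difference between the groups. After each group was centred on its mean, the closest were Ccdc142 (0.965), Zfp566 (0.954) and Cdk5 (0.916), and Isl1 was at place 315 with r of 0.601. For Zfhx3 the closest over the 8 libraries were Armcx4 (0.974), Ssfa2 (0.965) and Bod1l (0.961), and within groups Pde4d (0.975), Tsc22d2 (0.968) and Pln (0.963). For Zfhx2 they were Fnbp1l (0.979), Bahcc1 (0.963) and Sidt2 (0.962), and within groups Dusp2 (0.983), Fnbp1l (0.977) and Prkch (0.966). Zeb1 was followed by Thbs4 (0.956), Aqp1 (0.944) and Plekhg1 (0.933), and within groups by Aqp1 (0.97), Dnmt1 (0.967) and Emc1 (0.963). Zeb2 was followed by Ddx5 (0.976), Calu (0.959) and Itga6 (0.954), and within groups by Chek2 (0.979), Cdc37l1 (0.974) and Sel1l (0.971). The points are 8 libraries that share their scaling, and each of the 5 genes, also those without a difference between the groups, had others at such values.

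Markers of the cell types that the dissected tissue could hold were summed in each library to set beside these results. Cardiomyocyte markers, 8 genes with a median log2 fold change of -0.18, were at 19600 to 23208 CPM in CTRL and 16397 to 19676 CPM in Isl1_hypo, so the dissected tissue carried the genes of heart muscle. Smooth muscle markers were at 5295 to 7802 CPM and 5273 to 7684 CPM, most of it Acta2, while the defining gene Myh11 was at 0.344 to 1.59 CPM in CTRL and 0 to 0.434 CPM in Isl1_hypo. Neural crest and arch markers were at 106 to 113 CPM in CTRL and 71.8 to 98.3 CPM in Isl1_hypo, nearly all of it Ets1 and Crabp1. Of the others, Foxd3 was at 0 in 7 of the 8 libraries. Sox10 was read in every library at 1 to 11 counts, Dlx5 at 13 to 70 counts, and Tfap2a at 0 to 22 counts. Second heart field markers were at 56.9 to 87.5 CPM in CTRL and 38.1 to 59.7 CPM in Isl1_hypo, and of 7 tested genes Fgf10 was the 1 with an adjusted p under 0.05. Epicardial markers were at 48.3 to 303 CPM in CTRL and 366 to 586 CPM in Isl1_hypo, higher for 5 of 5 genes with a median log2 fold change of 1.07, and blood markers were higher for 8 of 8 with a median of 1.63. For neurons the sums were 54 to 79.2 and 36.5 to 55.9 CPM, with Neurog2 at 0 in every library. The medians were -0.08 for mesenchyme, -0.19 for endothelium, -0.25 for smooth muscle and -0.86 for macrophages. With edgeR an unadjusted p under 0.05 was found for 8 of 8 blood and 4 of 5 epicardial markers, all higher, and for 2 of 8 mesenchymal markers, both higher, beside 11.9% of all genes. It was found for 3 of 8 cardiomyocyte, 2 of 8 endothelial, 1 of 5 smooth muscle, 1 of 7 second heart field, 1 of 4 neural crest (Crabp1) and 1 of 4 neuronal markers, all lower, and for 0 of 5 macrophage markers. No marker other than Fgf10 had an adjusted p under 0.05. The part of these cell types in the values of Zfhx4 and Zfhx3 was not tested.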

How the data were processed

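Reads were aligned by the authors with STAR to mm9, and HOMER counted exon reads on both strands for each RefSeq transcript. Counts were deposited as whole numbers without normalization, so overlapping genes on either strand add up. The authors also deposited RPKM values made with edgeR and transcript lengths. Their fold changes, standard errors, statistics and p-values from DESeq2 were not used. Here the table of 31507 transcripts was reduced to the transcript of highest mean count per symbol, filtered with filterByExpr and scaled by TMM. The groups were compared without covariates with the quasi-likelihood test of edgeR 4.0.16 (R 4.3.3), adjusted by the Benjamini-Hochberg method over 13769 genes. The script was tested on simulated data. RPKM used TMM-scaled library sizes, and those of the authors were 0.588 to 0.625 times as high, since the total behind each deposited value is the sum over all transcripts. Poisson intervals cover counting error only. Total depth was 18422245 to 46678973 counts. Gene positions are from GENCODE M1 (mm9). Alternatives used DESeq2 1.42.0, limma 3.58.1 (voom with sample quality weights), other filters and scalings, covariates and left-out libraries. The genes and lists were chosen with earlier results of these data known. Named genes were Isl1, the 5 genes, the 3 smallest p-values of each list, up to 2 tested neighbours on each side and the 3 closest genes by Pearson r, apart from 1 list gene that is not reported here. In the epithelial, neural crest, second heart field, smooth muscle and neuron lists, other genes were named after their values were seen.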

Additional observations from a re-analysis of the deposited data

Results flagged for a closer look

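Among 42 groups of 4 embryos, those of the 5 genes, Isl1 and the 15 list genes named by the smallest p-values, 3 held an embryo far from the other 3 in log2 CPM, where chance gives about 1 in 20. Tshz1 was lower in CTRL replicate 1, at a log2 CPM of 3.57 (11.8 CPM) against 15 to 15.2 CPM in the other CTRL embryos. Snai1 was higher in the same CTRL embryo, at a log2 CPM of 5.59 (48 CPM) against 34.8 to 36.7 CPM. Smarca4 was lower in Isl1_hypo replicate 3, at a log2 CPM of 7.56 (189 CPM) against 237 to 240 CPM. No group of the 5 genes or of Isl1 was among them.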

How the results depend on the processing

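Over 19 alternatives the log2 fold change stayed between -0.76 and -0.07 for Zfhx2, -0.48 and -0.30 for Zfhx3, 0.01 and 0.15 for Zeb1 and -0.28 and -0.03 for Zeb2, and none of these 4 genes reached an adjusted p under 0.05. Zfhx4, on which the group was selected, was at -1.57 with the Y-linked level as a covariate and -1.53 with the globin level, and leaving out 1 library gave -1.71 to -1.42. Isl1 was at -2.30 with the globin covariate, with an adjusted p above 0.05. The number of the 5 genes with an adjusted p under 0.05 was 0 with the Y-linked or globin covariate and 0 to 1 on leaving out a library (0 without CTRL replicate 1, 2, 3 or 4 or Isl1_hypo replicate 2 or 4). Over all genes the count of 37 became 319 with DESeq2, 134 with limma-voom with sample quality weights (the tool and the weights changed together), 63 with every transcript, 3 with the Y-linked covariate (892 at an unadjusted p under 0.05), 0 with the globin covariate (499) and 4 to 48 on leaving out a library. The causes were not tested. Of the ZEB corepressor list 2 genes passed with DESeq2. The deposited RPKM were lower for all 5 genes in both groups by the scale of their totals.

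Over all genes tested, same-numbered embryos of the groups did not deviate together (correlations of -0.0209 to 0.0219). These correlations were not set against those of differently numbered embryos, so they cannot show whether embryos with the same number shared a litter. With the replicate number as a block (replicate block) the log2 fold change was -1.56 for Zfhx4 and -2.29 for Isl1, and 0 genes passed with edgeR, 0 of the 5 among them, while 1582 had an unadjusted p under 0.05.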
